A study of Bos taurus with 12 samples.

Results

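The ZNF genes are the rows of the deposited gene expression table whose symbol is ZNF followed by a number and at most 1 letter. The rule found 257 rows of 18436, carrying 254 distinct symbols, since ZNF268, ZNF354A and ZNF383 each stand on 2 rows. Their m6A peaks are those that the deposited peak lists assign to the same symbols, 537 in the list of myoblasts and 462 in the list of myotubes. The rule used the name alone, and no measured value. The name was weighed against the annotation that the table carries. Of the 257 rows, 248 had the Gene Ontology term nucleic acid binding, 144 had regulation of transcription and 51 had DNA-binding transcription factor activity, so a role as a transcription factor is annotated for some of them and not for all.

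The study asked how N6-methyladenosine (m6A), the most common internal modification of messenger RNA, is placed and altered when bovine muscle precursors become myotubes. Primary skeletal myoblasts came from the longissimus dorsi, the long back muscle, of a newborn Qinchuan animal. The GM group held proliferating myoblasts in growth medium at 80% confluence, and the DM group held myotubes after 4 days in differentiation medium. With 3 cultures in a group, a culture contributed 1 input library of poly(A) RNA and 1 library of RNA pulled down with an antibody against m6A (IP), 12 libraries in all. The cells came from 1 animal as the methods describe it, so every p-value below measures the spread between these cultures and not between animals.

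C2H2 zinc finger proteins read DNA with a row of small zinc-binding fingers, each of which contacts a few bases. Many carry a KRAB domain ahead of the fingers, which recruits the co-repressor TRIM28 and, through it, the histone methyltransferase SETDB1 and heterochromatin proteins, a system best known for silencing transposable elements. Others carry a SCAN domain, through which they pair with each other, and some named ZNF bind RNA or ribosomes rather than DNA. KRAB zinc finger genes lie in clusters of tandem copies, and their fingers are usually encoded together in 1 long final exon. m6A is laid down by a complex around METTL3, typically in long internal exons, near the stop codon and in the 3′ UTR, and long exons are therefore a common place for it.

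The ZNF genes lay on 27 chromosomes of the ARS-UCD1.2 assembly. Chromosome 18 held 78 of them (30.4%), of which 69 lay between 45 and 66 Mb, and chromosomes 25, 7 and 17 held 24, 21 and 14. By the KEGG orthology entries in the deposited table, 88 belonged to the KRAB zinc finger group, 13 to the group with both KRAB and SCAN, 5 to the group with SCAN, and 151 to another group or to none. These entries are incomplete, since ZNF274, which is known to carry a KRAB domain, was among the 151. Below, KRAB genes are the 101 in the first 2 groups.

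ZNF genes were expressed at levels like those of the median gene in the table. Expression is given as FPKM, fragments per kilobase of exon scaled to the mapped fragments of the library, in the input libraries. Library medians ran from 2.84 to 3.17 FPKM for ZNF genes and from 2.84 to 3.16 FPKM for all genes. Among genes that passed the filter for the test the median was lower for ZNF genes, 3.36 FPKM against 8.04 FPKM for all genes. The highest was ZNF106 at 92.0 FPKM, and 20 reached 10 FPKM. Altogether they took 0.275% to 0.297% of the summed FPKM in the GM cultures and 0.328% to 0.351% in the DM cultures. Their summed level was 1217, 1235 and 1193 FPKM in GM against 1356, 1284 and 1340 FPKM in DM. Without ZNF106 the sums ran from 1152 to 1190 FPKM in GM and from 1155 to 1213 FPKM in DM, so the groups overlapped once that gene was left out. A mean of at least 0.5 FPKM was required for the test, which 233 of the 257 passed. The 24 that did not had means up to 0.478 FPKM, and 9 of the 257 were listed at 0 in at least 1 library.

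Most markers moved in the direction of the labels. All 6 markers of proliferating myoblasts fell and 8 of 10 myotube markers rose by the test described below. ACTC1 and MYMK passed in neither direction. Several myotube markers were already high in GM, with means of 197 FPKM for MYOG, 273 FPKM for MYH3 and 883 FPKM for ACTC1. In DM these stood at 243, 659 and 898 FPKM, and MYH8 went from 0.52 to 4.06 FPKM. Of 10 fibroblast markers 9 could be tested, of which 4 rose and 1 fell, and their summed level went from 16069 to 16219 FPKM in GM and from 16963 to 18072 FPKM in DM. The part of such cells in the results below was not tested, and in whole cultures a change in the share of cells cannot be told apart from a change in RNA per cell. Of 7 adipocyte markers 5 had means under 0.5 FPKM, as had the 4 endothelial markers present in the table, and CD68, the 1 immune marker present, did not pass the test. Libraries had FPKM sums of 415740 to 434458 in GM and 386436 to 390827 in DM. The deposited files give no read numbers, so no depth stands beside these values.

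m6A peaks were found on most ZNF genes, more often than on other genes. The m6A data are 1 pooled peak list per group, each peak with its position and its fold enrichment, the ratio of IP over input signal. The study's methods also name peaks called per sample, which were not used here. The pooled lists carry no value per culture, so shares carry Wilson 95% intervals that cover counting error only, and no test over cultures was made from them. Where peaks are counted, several can come from 1 gene, which these intervals do not take into account. In the GM list 218 of the 257 ZNF genes (84.8%, interval 79.9% to 88.7%) had at least 1 peak, against 56.6% of the 18179 other genes in the table. In the DM list 230 did (89.5%, interval 85.1% to 92.7%), against 62.9% of the others. A peak was called in both lists for 210 genes, in GM alone for 8, in DM alone for 20 and in neither for 19.

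The gap was also present within broad ranges of expression, inside which genes were not matched. Between 0.5 and 10 FPKM, where 213 ZNF genes lay, 87.3% had a GM peak and 92.5% a DM peak, against 70.9% and 77.2% of 6724 other genes. Under 0.5 FPKM, 14 of 24 ZNF genes (58.3%) had a peak in either list, against 28.9% and 32.3% of other genes. Of the 20 ZNF genes at 10 FPKM or more, 18 had a GM peak and 19 a DM peak. That interval for GM, 69.9% to 97.2%, took in the 70.1% of other genes, and that for DM, 76.4% to 99.1%, took in their 79.8%, so at the highest level the shares were not separated. Transcript and exon length, which differ between gene classes, were not compared.

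**Figure D1:**
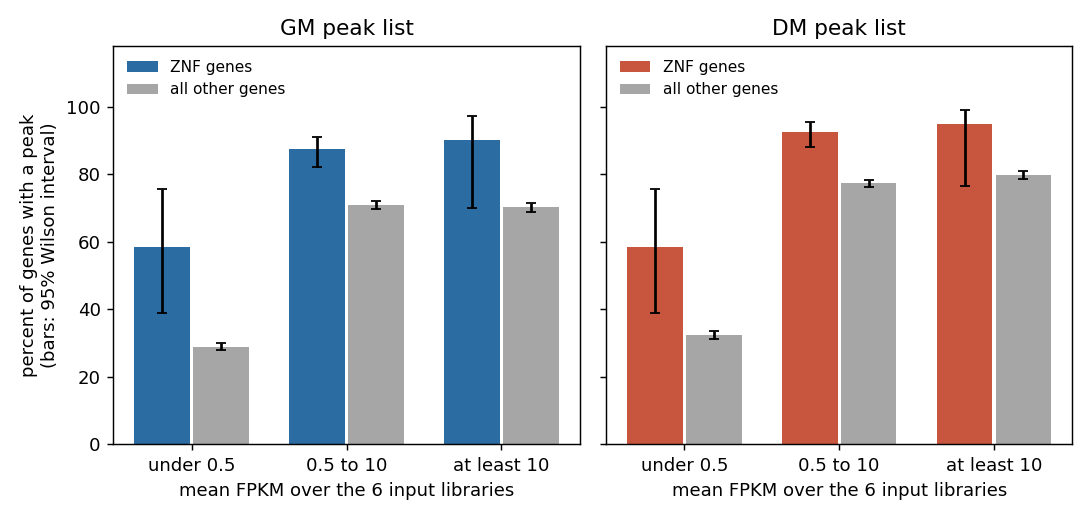
Percent of genes with at least 1 m6A peak (vertical axis) by mean FPKM over the 6 input libraries (horizontal axis), for ZNF genes (coloured) and all other genes (grey), in the GM and the DM list. Error bars are Wilson 95% intervals. In the middle range, 0.5 to 10 FPKM, ZNF genes stood at 87.3% in GM and 92.5% in DM, above other genes at 70.9% and 77.2%.

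The peaks of ZNF genes sat in the last exon more often, and in the 3′ UTR less often, than those of other genes. The deposited annotation gives each peak as a whole 1 place, which is a 5′ UTR, a numbered exon or a 3′ UTR. In GM, 183 of 537 ZNF peaks (34.1%, interval 30.2% to 38.2%) were annotated to the last exon of their transcript, against 9.33% of the 19202 other peaks. The 3′ UTR held 114 (21.2%), against 43.2% of other peaks. Earlier exons held 162 (30.2%) and the 5′ UTR 78 (14.5%), close to the 31.3% and 16.1% of other peaks. KRAB genes had the larger share in the last exon, 87 of 191 GM peaks (45.5%, interval 38.6% to 52.6%), against 96 of 346 (27.7%, interval 23.3% to 32.7%) for the remaining ZNF genes.

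In DM the last exon held fewer of the ZNF peaks, 96 of 462 (20.8%, interval 17.3% to 24.7%), against 7.29% of other peaks. The 3′ UTR held 128 (27.7%), the 5′ UTR 102 (22.1%) and earlier exons 136 (29.4%). For KRAB genes the last exon held 43 of 170 DM peaks (25.3%, interval 19.4% to 32.3%). For the remaining ZNF genes it held 53 of 292 (18.2%, interval 14.2% to 23.0%), and these intervals overlapped, unlike those in GM. The intervals treat peaks as independent. In GM 104 of the 183 ZNF peaks in the last exon overlapped, together with other GM peaks, 1 DM peak, so a region could be counted several times. The difference between the classes was not tested. Some peaks changed their annotated place. Of 56 peaks in the last exon in GM that overlapped exactly 1 DM peak, 35 kept that place and 15 were annotated to an earlier exon in DM, while 63 of 65 such peaks in the 3′ UTR kept theirs. The last-exon share stayed above that of other peaks at each stricter threshold tried, from 31.3% to 35.0% in GM and from 18.3% to 19.7% in DM.

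**Figure D2:**
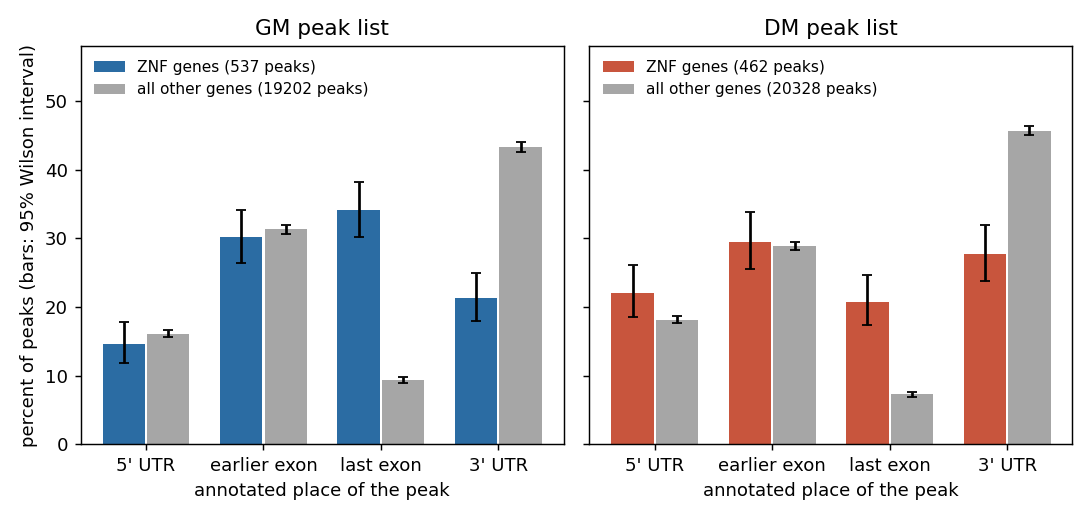
Percent of m6A peaks (vertical axis) by annotated place in the transcript (horizontal axis), for ZNF genes (coloured) and all other genes (grey), in the GM list (537 and 19202 peaks) and the DM list (462 and 20328 peaks). Error bars are Wilson 95% intervals. ZNF peaks lay in the last exon in 34.1% of cases in GM and 20.8% in DM, against 9.33% and 7.29% of other peaks.

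From GM to DM the peaks of ZNF genes became fewer and longer. Their number fell from 537 to 462 while that of other genes went from 19202 to 20328. At a false discovery rate under 0.001 it went from 368 to 334 for ZNF genes and from 13876 to 13830 for other genes. The median length of a ZNF peak, counted over its exon blocks, was 297 bases in GM and 568.5 bases in DM, against 356 and 421 bases for other genes. The summed length went from 292082 to 409817 bases, which is 1.40 times, against 1.28 times for other genes of the table. Of the ZNF bases under a GM peak 88.9% were also under a DM peak, while 63.25% of those under a DM peak were also under a GM peak. Among the 210 ZNF genes with peaks in both lists, 79 (37.6%) had fewer peaks in DM, 34 had more and 97 had as many, and 178 (84.8%) had a longer covered length. Of other genes with peaks in both, 23.3% had fewer peaks and 72.4% a longer cover, while among ZBTB genes, another zinc finger family, 51.4% and 94.6% did.

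Neighbouring GM peaks were often spanned by 1 DM peak. This held for 235 of the 537 ZNF peaks in GM (43.8%, interval 39.6% to 48.0%), against 25.4% of other peaks, and for 104 of the 183 in the last exon (56.8%, against 33.9%). Seen from DM, 106 of 462 ZNF peaks (22.9%) covered 2 or more GM peaks, against 13.9% of other peaks, with at most 6 GM peaks under 1 and a median length of 1589.5 bases. A further 63 GM peaks (11.7%) had no DM counterpart, against 14.8% of other peaks. Of the DM peaks 114 (24.7%) had no GM counterpart, against 28.8%. The read numbers behind each list, which the study states elsewhere, were not used here, and the part of depth in these counts was not tested.

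ZNF106 was one such gene. Zfp106, its mouse form, is an RNA-binding protein whose loss leads to degeneration of motor nerves and muscle. Its GM list had 4 peaks on chromosome 10, of 270, 301, 1080 and 1618 bases, with fold enrichments of 2.52, 1.76, 2.17 and 4.24. The DM list had 1 peak over all of them, at chr10:37785228-37821807, made of 12 exon blocks with 4763 bases in all, and its fold enrichment was 4.22. ZNF114 likewise had 3 peaks in its last exon in GM, with fold enrichments of 4.36, 7.62 and 8.71, and 1 of 1152 bases in DM with a fold enrichment of 22.4, at means of only 0.139 FPKM in GM and 0.117 FPKM in DM.

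The genes with most peaks over both lists were ZNF516, ZNF524, ZNF532, ZNF646, ZNF653 and, named after its value was seen because it tied with them, ZNF8. ZNF516, a factor of brown fat that drives Ucp1, had 7 GM peaks with fold enrichments from 1.81 to 3.84. In DM it had 5 peaks, the longest of which, 1643 bases, covered 4 of the GM peaks. ZNF532, which joins ZNF592, ZNF687 and the reader protein ZMYND8 in a complex, kept 6 peaks in both lists, each overlapping exactly 1 peak of the other. ZNF646 had 6 GM peaks, of which the 5 farthest upstream were covered by 2 DM peaks. ZNF524 had 7 peaks in GM and 5 in DM, as had ZNF653. The table gives ZNF524 a span of chr18:61915345-61960163, and 1 of its GM peaks was annotated to a transcript of another gene identifier, so the assignment of these peaks is uncertain.

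The peaks of highest fold enrichment belonged to genes with means under 3 FPKM. ZNF784 had the highest fold enrichment in both lists, 78.4 in GM and 86.3 in DM, for 1 peak of the same 2530 bases at chr18:61921781-61924820, and its mean was 1.31 FPKM in GM and 1.79 FPKM in DM. The peak runs over the whole annotated gene, which lies on the plus strand inside the span given for ZNF524 on the minus strand. ZNF526 followed in GM with 35.9, ZNF692 with 23.2, and ZNF653 and ZNF554 with 21.8 each. In DM the order after ZNF784 was ZNF114 with 22.4, ZNF597 with 21.3, ZNF692 with 18.5 and ZNF891 with 18.1. ZNF114, ZNF554, ZNF597 and ZNF891 had means under 0.5 FPKM. Over all their peaks the median fold enrichment was 2.93 in GM and 3.41 in DM for ZNF genes, against 3.29 and 3.38 for other genes.

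Enrichment was compared only where exactly 1 GM peak and 1 DM peak overlapped, by at least 1 base of exon blocks on the same strand. There were 207 such pairs in 142 ZNF genes. The fold enrichment was over 1.5 times higher in DM for 39 pairs (18.8%, interval 14.1% to 24.7%) and over 1.5 times lower for 21 (10.1%, interval 6.73% to 15.0%). Over all 10239 pairs 14.2% were higher and 10.8% lower, and both lie within those intervals. Either way 60 ZNF pairs (29.0%) in 54 genes passed the ratio of 1.5, against 25% of all pairs. The median log2 ratio of DM over GM was 0.11 for ZNF pairs and 0.07 for other pairs. Each ratio rests on 1 pooled value per group and has no replicate error, so these counts say which values differ and not which differ beyond the spread between cultures.

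Pairs were counted separately in KRAB genes and in the rest. Of 71 pairs in KRAB genes 19 (26.8%, interval 17.9% to 38.1%) were higher and 3 (4.23%, interval 1.45% to 11.7%) were lower in DM. Of 136 pairs in the remaining ZNF genes 20 were higher (14.7%) and 18 lower (13.2%). The length of the peaks moved with this. Of all 207 ZNF pairs 158 had the longer peak in DM. All 39 ZNF pairs that were higher in DM did, 26 of them over 1.5 times as long, against 9 of the 21 lower pairs. The median length in KRAB pairs went from 450 to 779 bases, and in pairs outside ZNF genes from 416 to 536 bases. With overlap of at least 50% of both peaks required, KRAB genes had 9 higher (15%) and 2 lower pairs of 60. The remaining ZNF genes had 15 and 13 of 126, and 11.6% of pairs outside ZNF genes were higher and 11.2% lower. KRAB genes had 14 and 3 of 70 pairs at a fold enrichment of at least 2. Centred on the median of all pairs they had 13 and 4 of 71, and with the same place in both lists 13 and 3 of 58. For pairs outside ZNF genes these settings gave, in that order, 14.6% higher and 11.3% lower, 11.6% and 12.9%, and 13.5% and 11.0%. In the remaining ZNF genes the order of higher and lower turned with these 3 settings. It became 15 and 18 at a fold enrichment of at least 2, 17 and 20 when centred, and 15 and 17 with the same place. Neither the difference between the classes nor the part of peak length in it was tested.

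The 6 largest increases spanned genes of several roles. ZNF341, which drives transcription of STAT3, had the largest, in a 3′ UTR peak at chr13:63188924-63189490 whose fold enrichment was 2.23 in GM and 16.0 in DM. The same gene had another 3′ UTR peak that went the other way, from 4.90 to 2.56. ZNF350, a KRAB protein known as a partner of BRCA1, went from 1.97 to 10.6 in its 5′ UTR. ZNF215 went from 3.11 to 13.8 and ZNF839 from 2.72 to 8.52. ZNF592 went from 3.43 to 9.58 over the 3′ UTR, with peaks of nearly the same length, 1197 and 1257 bases. ZNF274, the KRAB protein that directs SETDB1 to the 3′ ends of zinc finger genes, went from 2.05 to 4.65 in an earlier exon and from 3.51 to 2.18 in its last exon.

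The 6 largest decreases were led by ZNF526, from 35.9 to 6.85 in the 3′ UTR with peaks of 1646 and 1557 bases. In the same gene a last-exon peak went from 1.63 to 2.71. ZNF414 went from 14.2 to 3.39 and ZNF580 from 5.99 to 1.52, with shorter DM peaks in both. ZNF554 went from 21.8 to 7.45, and ZNF618 from 6.17 to 2.30 with peaks of 270 bases in each list that shared 121 bases. Both genes had means under 0.5 FPKM. ZNF706 went from 7.98 to 3.62, between a GM peak of 506 bases in the 5′ UTR and a DM peak of 91 bases in an earlier exon. These shared 61 bases. ZNF274, ZNF341 and ZNF526 were the 3 genes with pairs past the ratio in both directions.

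**Figure D3:**
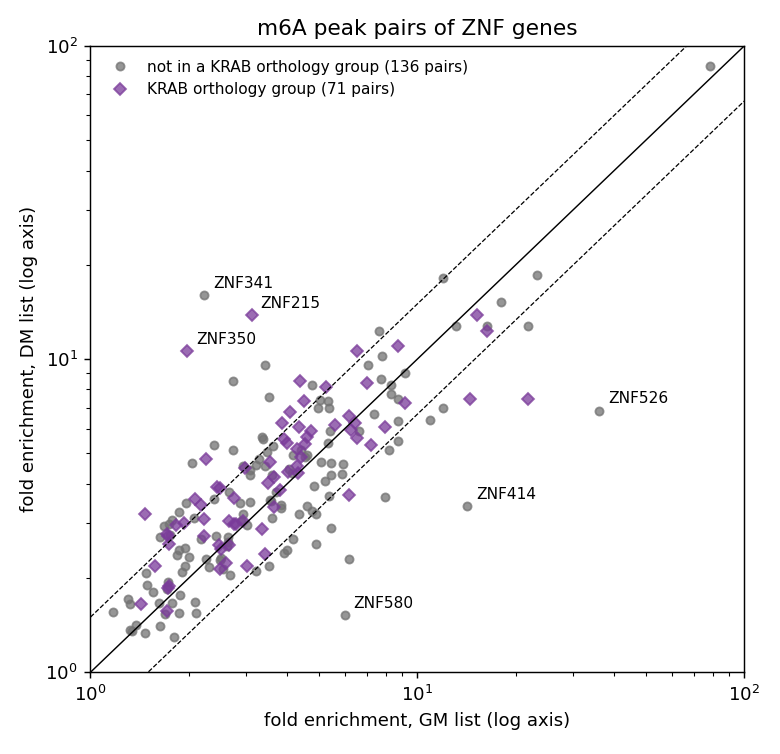
Fold enrichment of IP over input in the GM list (horizontal, log axis) and the DM list (vertical, log axis) for the 207 overlapping peak pairs of ZNF genes, with KRAB genes as diamonds (71 pairs) and the remaining ZNF genes as circles (136 pairs). The solid line marks equal values and the dashed lines a ratio of 1.5. Of the diamonds 19 lie above the upper dashed line and 3 below the lower one. ZNF341, ZNF350 and ZNF215 had the largest increases, and ZNF526, ZNF414 and ZNF580 the largest decreases.

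The mRNA of most ZNF genes differed little between myoblasts and myotubes. Differences were tested with limma on log2(FPKM + 1), fitted on all 12302 genes past the filter, and a gene is said to rise or fall where its Benjamini-Hochberg adjusted p over all of them was under 0.05. Fold changes on this scale understate the change of low genes. Of the 233 ZNF genes tested 31 rose (13.3%) and 12 fell (5.15%) in DM, whereas 16.1% of all tested genes rose and 26.7% fell, a balance among all genes that turned with the scaling described below. The study's own cutoffs were an unadjusted p under 0.05 with a fold change over 1.5, used there with edgeR. Applied here to the limma fit on log2(FPKM + 1), they gave 3 rises (ZNF106, ZNF3 and ZNF219) and 0 falls. At a limma unadjusted p under 0.05 alone 42 were higher and 20 lower. The 3 rises are 1.29% of ZNF genes, against 11.9% of all genes, of which 4.9% were higher and 6.97% lower. ZNF462, at −0.583 on the log2 scale, came just short of the fold cutoff, and other pseudocounts changed these counts, as given below. The 3 values of each group did not overlap in 80 ZNF genes (34.3%), with 55 higher and 25 lower in DM, while 54.1% of all genes showed no overlap, 21.1% with DM higher and 33% with GM higher.

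Most fold changes were also bounded closely on the scale of log2(FPKM + 1). For 222 of the 233 (95.3%) the limma 95% interval lay within a 1.5-fold change in both directions, against 75.9% of all tested genes. This scale understates changes of low genes, and tested ZNF genes were lower, with a median of 3.36 FPKM against 8.04 FPKM for all. The count was not redone with another pseudocount. The median log2 fold change was 0.06 for ZNF genes, with quartiles of −0.05 and 0.16, and −0.05 for all genes, and it was above 0 for 145 of the 233 (62.2%) against 41.7%. Rescaling each library to TPM moved the median of all genes by 0.11, to 0.06, and that of ZNF genes to 0.17, so that the ZNF median lay 0.12 above that of all genes, against 0.11 as reported. Among all genes TPM turned the balance of calls, to 2993 rises and 2038 falls from 1980 and 3288, and median-of-ratios size factors gave 2554 and 2663, so the share of all calls that were higher was 37.6% as reported, 59.5% with TPM and 49.0% with size factors. For ZNF genes TPM gave 58 rises and 5 falls (92.1% of the calls higher, against 72.1% as reported and 84.2% with median-of-ratios size factors). Each of the 6 leave-one-out fits lowered the number of rises, and by over 1.5 times without GM culture 1 (18), DM culture 1 (9), DM culture 2 (20) or DM culture 3 (19).

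**Figure D4:**
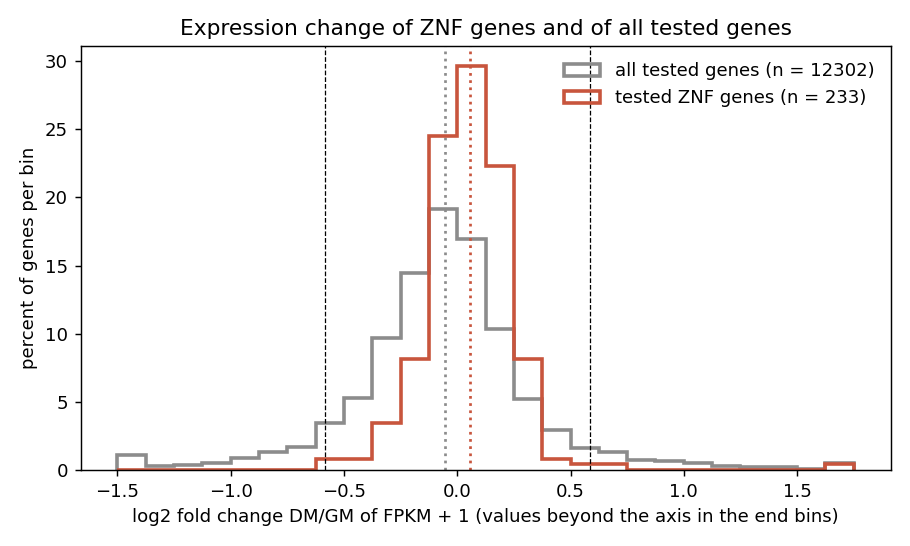
Percent of genes (vertical axis) by log2 fold change of FPKM + 1, DM over GM (horizontal axis), for the 233 tested ZNF genes (red) and all 12302 tested genes (grey). Dotted lines mark the medians, 0.06 and −0.05, and dashed lines a 1.5-fold change. ZNF genes lie closer to 0, with ZNF106 alone in the last bin at the right among them.

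ZNF106 had by far the largest change. Its levels were 43.3, 45.3 and 40.8 FPKM in GM and 143, 128 and 151 FPKM in DM. Every DM culture was thus more than 2 times above every GM culture, and the mean rose 3.27-fold (log2 fold change 1.68 ± 0.07 SE, adjusted p = 1.12e-06 by limma). ZNF219, a partner of SOX9 in cartilage, was at 2.13, 1.84 and 1.75 FPKM in GM and at 3.73, 3.33 and 3.34 FPKM in DM, a rise of 0.62 ± 0.08 on the log2 scale (limma adjusted p = 0.00042) with no overlap between groups. ZNF3 met the study's cutoffs with overlapping groups. It stood at 7.79, 3.07 and 3.06 FPKM in GM and at 6.27, 8.84 and 8.39 FPKM in DM, and GM culture 1 alone was near the DM values. Its log2 fold change of 0.74 ± 0.28 had a limma adjusted p of 0.069.

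Of the 43 genes called, 13 were called in the same direction in each of 14 other fits, which changed the pseudocount, filter, scaling, variance model or block, or left out 1 culture. ZNF106, ZNF219, ZNF568, ZNF385A, ZNF592, ZNF35, ZNF286A and ZNF34 made up the 8 rises, and ZNF462, ZNF706, ZNF484, ZNF217 and ZNF609 the 5 falls. Of these, ZNF568, ZNF35, ZNF286A, ZNF34, ZNF462 and ZNF484 are named because of their values, outside the rule that chose the other names. ZNF568, a KRAB protein that represses a placental transcript of Igf2 in mice, had 3.23, 3.27 and 3.17 FPKM in GM and 5.28, 4.07 and 5.57 FPKM in DM, a rise of 0.49 ± 0.10 on the log2 scale (limma adjusted p = 0.0047). ZNF462, a large protein of embryonic and neural cells, had 8.72, 9.12 and 9.14 FPKM in GM and 5.60, 5.61 and 5.78 FPKM in DM. Its fall of 0.58 on the log2 scale (SE 0.05, limma adjusted p = 7.69e-05) was the largest among ZNF genes, and 2 of its 4 peak pairs passed the ratio of 1.5, from 7.62 to 12.3 and from 1.68 to 2.94.

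ZNF484 fell from 8.31, 8.81 and 7.00 FPKM to 5.99, 5.09 and 5.28 FPKM, with no peak in GM and 4 in DM. The remaining calls were small. Apart from ZNF106, ZNF219 and ZNF568, the rises lay between 0.21 and 0.43 on the log2 scale, and falls began at −0.24. In ZNF503 alone among the 43 did the groups overlap.

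**Figure D5:**
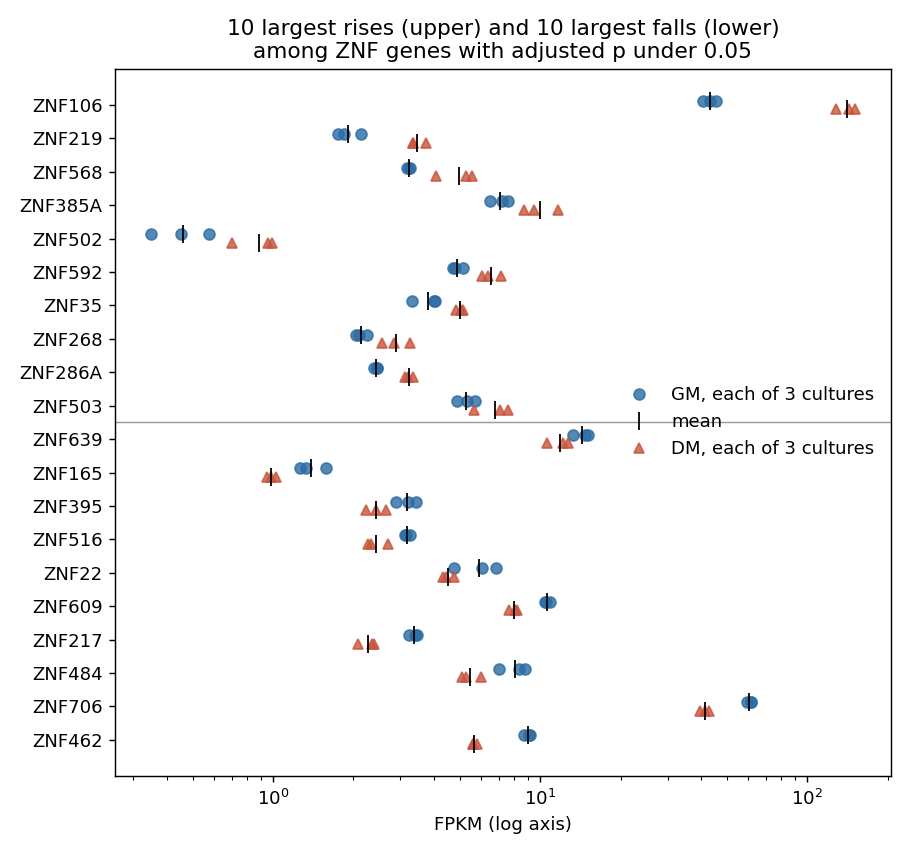
FPKM of each culture (horizontal, log axis) for the 10 ZNF genes with the largest rises (above the line) and the 10 with the largest falls (below it) among those with an adjusted p under 0.05. Blue circles are the 3 GM cultures, red triangles the 3 DM cultures and vertical ticks the group means. Except for ZNF503 the groups do not overlap, and ZNF106 has the widest gap, at 40.8 to 45.3 FPKM against 128 to 151 FPKM.

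Of 96 KRAB genes tested 12 rose and 1, ZNF74, fell, and of 137 others 19 rose and 11 fell. Their median log2 fold changes were 0.07 and 0.05. Among the 71 genes tested on chromosome 18, 9 rose and 0 fell by limma (12 higher and 3 lower at an unadjusted p under 0.05), with the lowest log2 fold change at −0.37 and the highest at 0.49. Over all tested genes 16.1% rose and 26.7% fell. The KRAB rises became 3, with 2 falls, without DM culture 1, 6 without GM culture 3, 8 without GM culture 1 or DM culture 2, 7 with no filter on low values, 19 with size factors and 23 with TPM. The difference between the classes was not tested.

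Among members with roles in RNA, ribosomes and translation, 3 of 10 rose, 1 fell and 6 passed in neither direction. Of all tested genes 16.1% rose and 26.7% fell, and this list too is read gene by gene. ZNF106 is given above. ZNF385A, which binds RNA and acts in the p53 response, rose from 7.58, 7.20 and 6.49 FPKM to 9.48, 11.7 and 8.70 FPKM (log2 fold change 0.43 ± 0.10, limma adjusted p = 0.011), and its peak went from a fold enrichment of 7.81 to 10.2. ZNF622, which helps to mature the large ribosomal subunit, rose from 26.5 ± 0.51 to 30.8 ± 2.1 FPKM (mean ± SD, n = 3), with a limma adjusted p of 0.024 that was over 0.05 in 4 of the other fits. ZNF706, which encodes a very small protein, fell from 61.3, 61.5 and 59.3 FPKM to 39.7, 42.8 and 41.5 FPKM (log2 fold change −0.54 ± 0.05, limma adjusted p = 6.43e-05). ZNF598, the ubiquitin ligase that marks collided ribosomes, was at 9.13 ± 0.62 and 7.93 ± 0.27 FPKM (limma adjusted p = 0.054). ZNF638, an RNA-binding protein of adipocyte differentiation, had 32.1 and 32.3 FPKM and went from 7 peaks to 2. ZNF593, ZNF326, ZNF346 and ZNF330 had log2 fold changes from −0.05 to 0.10.

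Of 5 regulators of progenitor and fat cell fate 2 fell, where 26.7% of all tested genes did, and a list of this size is read gene by gene. ZNF217, an oncogene product that works with the CoREST co-repressor, fell from 3.24, 3.46 and 3.41 FPKM to 2.08, 2.38 and 2.34 FPKM (log2 fold change −0.42 ± 0.07, limma adjusted p = 0.0017), and went from 5 peaks to 3. ZNF516 fell from 3.14, 3.27 and 3.11 FPKM to 2.71, 2.26 and 2.32 FPKM (log2 fold change −0.29 ± 0.07, limma adjusted p = 0.015). ZNF423, which commits cells to the fat lineage, was at 1.12 ± 0.14 and 1.15 ± 0.13 FPKM. ZNF521, which opposes it, was at 1.91 ± 0.26 and 1.98 ± 0.23 FPKM, and ZNF703 at 1.65 ± 0.12 and 1.81 ± 0.13 FPKM. The limma intervals of these last 3 log2 fold changes ran from −0.18 to 0.26 at most.

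ZNF609, the host gene of a circular RNA studied in myoblast growth, fell in every comparison of cultures. It had 10.4, 10.5 and 10.9 FPKM in GM and 8.08, 8.22 and 7.62 FPKM in DM (log2 fold change −0.37 ± 0.06, limma adjusted p = 0.0010). The values are those of the gene and say nothing of its circular form. It had 2 peaks in each list, with the longest over 4413 bases in GM and 4443 bases in DM.

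Of 7 promoter-binding activators and GC-box factors ZNF219 rose and the other 6 passed in neither direction, where 42.8% of all tested genes passed. ZNF281 was at 12.2 ± 1.3 and 10.2 ± 0.66 FPKM (limma adjusted p = 0.057) and ZNF148, which binds similar GC-rich sites, at 10.4 ± 0.90 and 11.8 ± 0.74 FPKM (limma adjusted p = 0.13). ZNF143, which recruits the machinery of small nuclear RNA genes, was at 5.62 ± 0.075 and 5.09 ± 0.20 FPKM, with 0 peaks in GM and 2 in DM. ZNF76, ZNF384 and ZNF740 had log2 fold changes between −0.06 and 0.08.

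Of 8 partners of histone-modifying complexes 7 were tested and 1 rose, where 16.1% of all tested genes did. ZNF592 went from 4.81, 4.71 and 5.15 FPKM to 7.14, 6.40 and 6.06 FPKM (log2 fold change 0.35 ± 0.07, limma adjusted p = 0.0050). It also held the peak whose enrichment went from 3.43 to 9.58. Its complex partners ZNF687 and ZNF532 had log2 fold changes of −0.07 and −0.10, with intervals of −0.28 to 0.13 and −0.23 to 0.03, against 0.19 to 0.52 for ZNF592. ZNF644, a partner of the histone methyltransferases EHMT1 and EHMT2, was at 7.77 ± 0.97 and 7.09 ± 1.1 FPKM. ZNF518A, ZNF518B and ZNF827 had log2 fold changes of −0.24, −0.04 and −0.14, and ZNF296 was near 0 in both groups.

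Of the 5 genes of cell division and genome stability 0 passed the limma test, where 42.8% of all tested genes did. Among the 5, ZNF365 and ZNF668 had a limma unadjusted p under 0.05. ZNF207, a spindle assembly factor with a mean FPKM next below that of ZNF106, was at 79.2, 75.4 and 75.1 FPKM in GM and 76.5, 69.8 and 78.7 FPKM in DM, with an interval of −0.16 to 0.10 on the log2 scale, while MKI67, a general proliferation marker, fell by 3.32. No peak was assigned to ZNF207 in either list. ZNF668 was at 2.19 ± 0.30 and 2.71 ± 0.25 FPKM (limma adjusted p = 0.087) and ZNF365 at 1.08 ± 0.21 and 0.759 ± 0.10 FPKM (limma adjusted p = 0.084).

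In the co-repressor machinery that KRAB proteins work through, most genes that passed the test fell. Of 36 genes listed for it 34 rows were tested, of which 18 fell, 1 rose and 15 passed in neither direction, where 26.7% of all tested genes fell and 16.1% rose, with a median log2 fold change of −0.21. With TPM scaling 10 fell and the median was −0.09. TRIM28, the central co-repressor, fell from 41.5 ± 1.8 to 30.3 ± 1.7 FPKM (log2 fold change −0.44, SE 0.06, limma adjusted p = 0.00055). SETDB1 was at 6.91 ± 0.30 and 6.22 ± 0.21 FPKM (limma adjusted p = 0.11). UHRF1 and DNMT1, which copy DNA methylation at replication, fell by 1.17 and 0.58 on the log2 scale, and SUMO2 fell by 0.49. The single rise was MORC2, a chromatin compactor of the HUSH pathway, at 11.4 ± 0.21 and 12.9 ± 0.53 FPKM (limma adjusted p = 0.033, over 0.05 in 7 other fits). TASOR, of the same pathway, and GATAD2B had log2 fold changes of 0.06 and 0.08 that did not pass. The list holds genes of replicating cells, and the proliferation markers fell alongside it. What part their fall has in these counts was not tested.

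Changes in m6A and in mRNA were set side by side. Of the 48 genes with a changed peak pair that could be tested in expression, 0 met the study's cutoffs for mRNA by limma, 10 had an unadjusted p under 0.05 and 8 an adjusted p under 0.05. Of all 1845 tested genes with a changed pair 13.2% met those cutoffs and 43.3% had an adjusted p under 0.05, and since only 3 ZNF genes met the mRNA cutoffs at all, the count of 0 says little about them jointly. Among genes with a pair higher in DM, 5 rose and 1 fell in mRNA, and among those with a pair lower in DM, 2 rose and 1 fell. The median log2 fold change of mRNA was 0.04 over 34 genes with a higher pair and −0.00096 over 17 with a lower one. Over 196 pairs the Pearson correlation of the log2 ratio of enrichment with the log2 fold change of mRNA was 0.02 and the Spearman correlation 0.04, where pairs of the same gene share an mRNA value and the input libraries enter both measures.

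Genes of related names were set beside the ZNF genes, where 16.1% of all tested genes rose and 26.7% fell. Of 28 genes named ZFP, ZSCAN or ZKSCAN 27 were tested, of which 4 rose and 1 fell, the median being 0.08 on the log2 scale, and 26 had a GM peak and 27 a DM peak. They had 61 peaks in each list, and of those with peaks in both 36% had fewer and 40% more in DM. Of 39 genes named ZBTB, which carry a BTB domain with their fingers, 35 were tested, 4 rose and 7 fell with a median of −0.01, and 37 and 38 had a peak. Their peaks numbered 86 in GM and 70 in DM, and of the 37 with peaks in both 51.4% had fewer and 94.6% a longer cover, so fewer and longer peaks were not particular to the ZNF genes. No difference between these families was tested.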

How the data were processed

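RNA came from 3 cultures each of GM myoblasts and DM myotubes. Per the study's methods, poly(A) RNA was fragmented, immunoprecipitated with an m6A antibody and sequenced with strand information beside its input. The authors trimmed reads, aligned them to ARS-UCD1.2 with HISAT2, computed FPKM with StringTie, called the deposited peaks with exomePeak and placed them with ChIPseeker. The deposited gene table holds FPKM of the 6 input libraries. The 2 deposited peak lists pool the cultures of a group and give each peak a fold enrichment (a ratio), a p-value and false discovery rate on a log10 scale, and a score. The deposited comparisons made by the authors were not used.

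FPKM were tested as log2(FPKM + 1) with limma 3.58.1 in R 4.3.3 (moderated with a variance trend) over the 12302 genes whose mean reached 0.5 FPKM, with Benjamini-Hochberg adjustment. On simulated data for 12284 genes the test recovered 187 of 195 changed genes with 10 false calls. Recovery was not tested for changes as small as most of those called in ZNF genes. Read depth is not given by FPKM, and libraries were not rescaled. Peak lengths and overlaps were counted over exon blocks on the same strand, and a pair of peaks was called changed at a ratio of fold enrichments over 1.5. Other pseudocounts, filters, scalings, peak thresholds and overlaps, and fits without each culture, were tried.

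The members, lists and tests were chosen with earlier results of these data known. Named genes are the largest changes at the study's cutoffs, the 5 highest in FPKM, the 6 largest rises and 6 largest falls of enrichment, the 5 genes with most peaks, the 5 highest peaks of each list, the role lists, and TRIM28, SETDB1 and the 3 largest rises and falls among co-repressor genes. No sequences are shown, since no genome of the files' build was used here.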

Additional observations from a re-analysis of the deposited data

How the results depend on the processing

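With TPM the median of all genes turned from −0.05 to 0.06 and that of histone-modifying partners from −0.10 to 0.01. Among peak pairs outside KRAB genes the excess of higher over lower turned in 3 settings given above. Every ZNF gene called kept its sign wherever it was tested. Rises of ZNF genes (31) became 58 with TPM, 48 with median-of-ratios size factors, 7 at an adjusted p under 0.01, and 9 to 24 when 1 culture was left out, with the lowest number without DM culture 1. Falls (12) became 5 with TPM and 5 at an adjusted p under 0.01. At the study's cutoffs the rises (3) became 5 with a pseudocount of 0.1, 5 with TPM, 1 at a fold change over 2, and 1 to 3 without 1 culture, and falls (0) became 1 with a pseudocount of 0.1 or 0.5 and 0 to 1 without 1 culture. The median log2 fold change was 0.17 with TPM. Among co-repressor genes 10 fell with TPM, and 0 rose in each fit without 1 culture, where MORC2 was no longer called. KRAB genes had 23 rises and 0 falls with TPM. The share of ZNF genes with a GM peak was 79.8% at a fold enrichment of at least 2 and 77.8% at a false discovery rate under 0.001, where that in DM was 82.1%. Higher peak pairs (39) became 24 with 50% overlap of both peaks, 9 of them in KRAB genes, and 10 at a ratio over 2. Lower pairs (21) became 13 at a false discovery rate under 0.001 and 6 at a ratio over 2. The causes were not tested, beyond the smaller number of peaks, pairs or cultures that some settings leave.

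No pairing by replicate number was seen in the values: the deviations of same-numbered GM and DM cultures correlated at −0.08, −0.12 and −0.21, and the other pairings between −0.06 and 0.19. The labels do not say whether cultures of the same number were handled together, and these correlations cannot decide it. With a replicate block 17 ZNF genes rose and 8 fell, 5 and 0 of them KRAB genes, and 0 co-repressor genes rose. The split of KRAB genes by orthology entry, the centring of pairs on their median, the overlap of 50% in KRAB pairs and TPM for KRAB genes were added after the data were seen. The planned split by protein letters, with its looser letters and finger spacing, was not run because no protein sequences were used here.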
